A study of Drosophila melanogaster with 3 samples.

Results

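The genes described here are the 9 that encode the dosage compensation machinery of Drosophila melanogaster and its switch: msl-1, msl-2, msl-3, mle, mof, lncRNA:roX1, lncRNA:roX2, Clamp and Sxl. They were taken by name from the annotation, 9 of the 18164 genes on chromosome arms 2L, 2R, 3L, 3R, 4 and X. The data are chromatin immunoprecipitation sequencing of HmgD, a DNA-bending protein with an HMG box, in 1 group of 3 biological replicates. All 3 replicates are whole embryos, males and females together, aged 0 to 24 h, from a transgenic line with stable expression of HmgD fused at its C terminus to green fluorescent protein. The fusion was precipitated through the fluorescent tag, and neither the promoter that drives it nor the state of the endogenous HmgD gene is given in the sources used here. There was no second genotype, stage or sex, so the comparisons are between genes and between replicates. Male and female chromatin cannot be told apart.

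In flies the single X chromosome of males is transcribed at a raised rate. The MSL complex does this. Its proteins MSL1, MSL2 and MSL3, the RNA helicase MLE and the histone acetyltransferase MOF assemble on the X. They do so together with either of 2 long noncoding RNAs, roX1 and roX2, which are themselves transcribed from the X. CLAMP, a zinc-finger protein, binds GA-rich repeats and helps the complex to find the X. In females, Sex lethal (SXL) blocks the translation of msl-2 mRNA, and the complex does not form. Sxl has an early promoter that opens only in female embryos and an upstream maintenance promoter used later in both sexes.

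The authors deposited a list of candidate peaks for each replicate, 1 list from the replicates pooled (30000 candidates) and a list of 2964 peaks that passed the irreproducible discovery rate (IDR) step, a filter on how reproducibly replicates rank a peak. The IDR peaks were the pooled candidates with the highest signal, from 114.7 upwards. Signal is the authors' own value per peak. Its scale differs between lists, so replicates are compared by rank percentile within their own list, where 100 is the strongest candidate. A candidate was assigned to a gene when its summit lay in the gene or within 2 kb of it. Offsets are in bp from a transcription start site (TSS), negative upstream. The files hold no read counts, so depth is unknown. The control data were not analysed here, and the part of open-promoter background in any peak was not tested.

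An IDR peak lay in or within 2 kb of 7 of the 9 genes, all except msl-3 and mof. Over all genes the share was 27.4%, and over protein-coding genes 30.7%. The peaks counted for mle and lncRNA:roX2 lay past the 3′ ends of these genes and near the starts of BubR1 and nod. That of msl-2 lay between its start and the start of ND-PDSW. A gene's window grows with its length, and the 9 genes were longer. Their median was 3895 bp, against 1656 bp for all genes and 2166 bp for protein-coding genes. The span within 500 bp of a TSS does not grow with gene length itself, but it grows with the number of annotated TSSs. That number was 4 for Sxl, 3 for lncRNA:roX1 and 1 for each of msl-1 and msl-2. Within 500 bp of a TSS, 4 of 9 had an IDR peak: msl-1, msl-2, lncRNA:roX1 and Sxl. That share was 15.5% of all genes and 18.7% of protein-coding genes. The lists are not samples, so these counts carry no test. Among the 2964 strongest candidates of each replicate's own list, 3 of the 9 genes had a promoter candidate in replicate 1 (16.7% of all genes), 4 in replicate 2 (14.9%) and 2 in replicate 3 (13.8%), a mean of 3.0 ± 1.0 genes (SD, n = 3). The genes reached in all 3 replicates were msl-1, at the same site each time, and Sxl, at no single site in all 3. Among candidates matched to the pooled list, the Sxl site was 407 bp after the third TSS in replicate 1, that site and the first TSS in replicate 2, and 189 bp before the third TSS in replicate 3. When a stricter set was built from candidates among the 2964 strongest of just 2 replicates, the count of 7 became 3 without replicate 1 (msl-1, mle and roX2), 2 without replicate 2 (msl-1 and Clamp) and 2 without replicate 3 (msl-1 and Sxl). The shares of all genes in these sets were 17.0%, 16.3% and 19.2%. The count of 4 promoters became 1, 1 and 2 (msl-1, and Sxl without replicate 3), against 9.05%, 8.61% and 10.3% of all genes. The counts of 7 and 4 thus rest on the full IDR list, and msl-1 was the gene present in every one of these sets.

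Every one of the 9 genes had at least 1 pooled candidate within 500 bp of a TSS, against 49.8% of all genes, and at least 1 in its window, against 74.8%. The windows held 48 pooled candidates in 90.0 kb, or 5.33 per 10 kb, beside 2.59 per 10 kb in the windows of all genes. Of these 48 candidates, 8 were IDR peaks, with a median signal of 141 against 158 for all IDR peaks. The 8 ranged from 123 to 219, and the highest of them ranked 635 of the 30000 pooled candidates. None of the 8 IDR summits lay in coding sequence, while 23 of the 48 candidates did. By the annotation, 5 IDR summits lay between genes, 1 in an intron, 1 in a noncoding exon and 1 in a 5′ untranslated region. Locations were not counted over all IDR peaks or all pooled candidates. This split therefore cannot be read as a trait of the 9 genes. All 3 replicates had a candidate with its summit within 200 bp for 7 of the 8, and for 2671 of the 2964 IDR peaks of the whole list (90.1%).

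**Figure D1:**
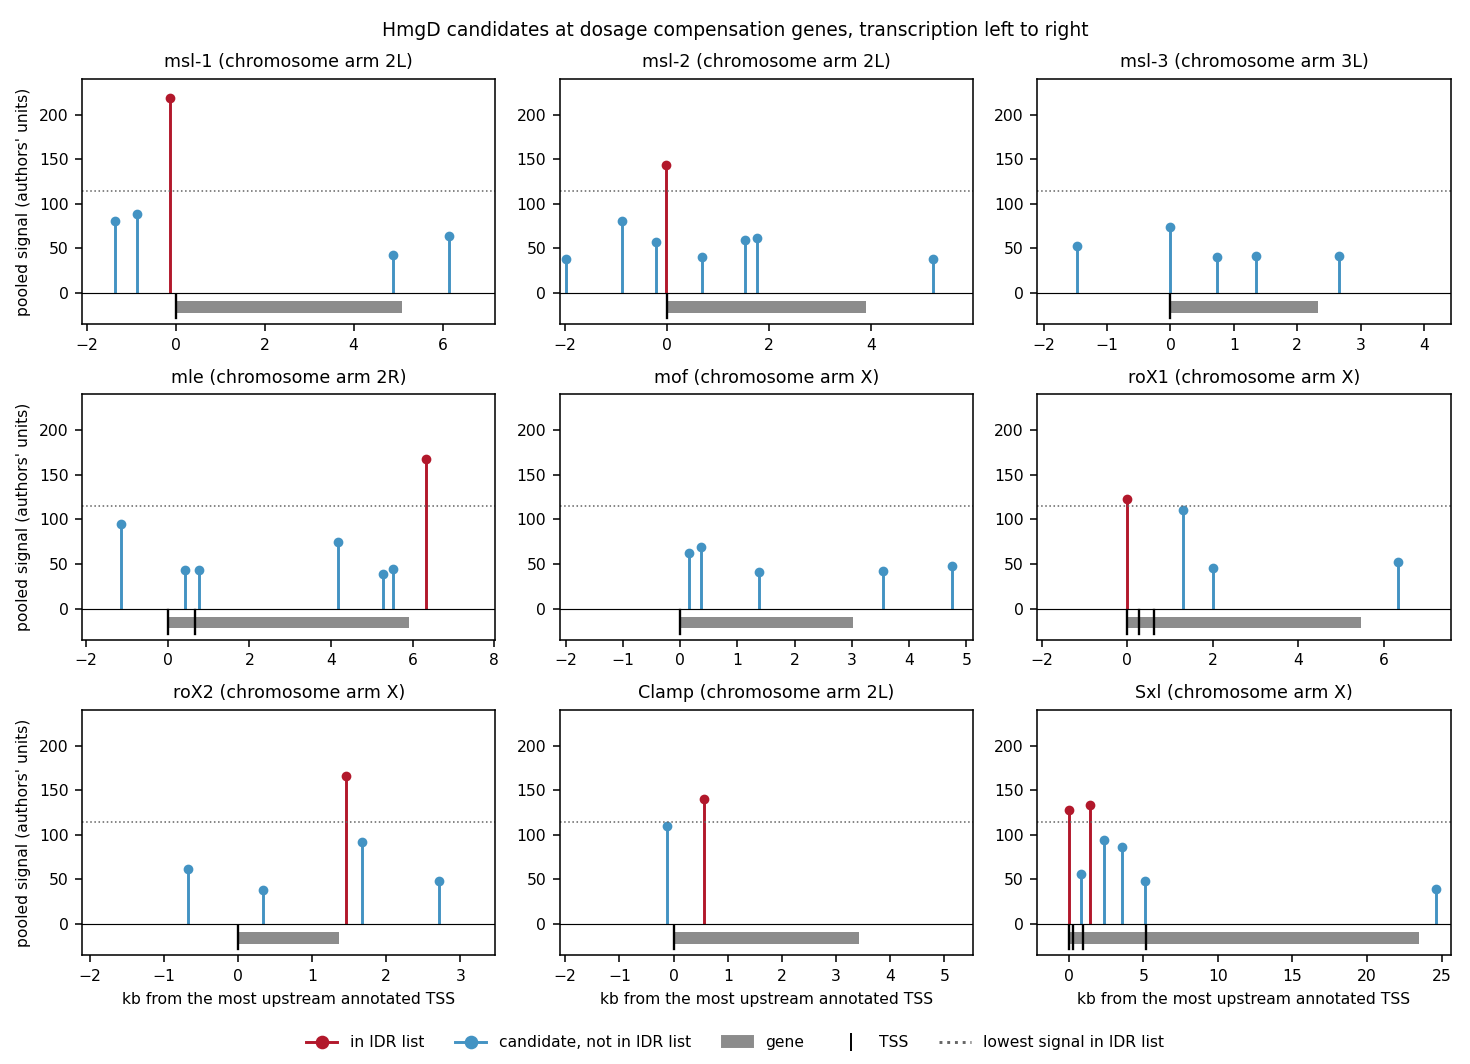
Pooled candidates along the 9 genes: the x axis is the distance in kb from the most upstream annotated TSS in the direction of transcription, and the height of each stem is the authors' pooled signal. Red stems are IDR peaks, blue stems other candidates, grey bars genes and black ticks TSSs. The msl-1 peak stands highest at 219, msl-3 and mof have no red stem, and the red stems of mle and roX2 lie beyond the 3′ ends of these genes.

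The msl-1 gene, which encodes the scaffold on which the other proteins assemble (arm 2L, 18683720 to 18688800, minus strand), had the strongest peak of the 9 genes. Its summit lay 122 bp upstream of the only annotated TSS, in a peak at 2L 18688720 to 18689123. The pooled signal was 219, rank 635 of 30000. The signal was 48.8 in replicate 1, 71.6 in replicate 2 and 97.4 in replicate 3, each on its own scale. These values stood at rank percentiles 94.3, 97.6 and 98.7, a mean of 96.8 ± 2.28 (SD, n = 3). All 3 replicates thus placed the site near the top of their lists. No other annotated gene starts within 500 bp of this summit. Of the 4 weaker candidates around msl-1, the 2 upstream ones, with signals of 88.7 and 81.2, lay within the neighbouring gene CG10336.

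The msl-2 gene encodes the male-limited ubiquitin ligase subunit whose mRNA is the target of SXL (2L 3462218 to 3466112, minus strand). It shares its upstream region with ND-PDSW, a gene for a subunit of respiratory complex I that is transcribed the other way. The IDR summit lay 15 bp upstream of the msl-2 TSS and 30 bp upstream of that of ND-PDSW, at 2L 3465925 to 3466328, with a signal of 143 and rank 1878. The peak cannot be assigned to either gene. The replicates disagreed on it more than on any other IDR peak of the 9 genes, with percentiles of 16.6 in replicate 1, 97.2 in replicate 2 and 87.2 in replicate 3 (67.0 ± 43.9, SD, n = 3). Replicate 1 did have a summit at the site, but as a weak candidate. A further candidate 221 bp upstream of msl-2 had a signal of 57.4, and 3 inside the coding sequence had signals from 40.0 to 62.1.

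The msl-3 gene, for the chromodomain subunit (3L 7123213 to 7125533, minus strand), had 5 candidates and no IDR peak. The strongest lay 12 bp upstream of its TSS and 360 bp upstream of the divergent gene BBS1. Its pooled signal was 73.8, rank 7240. Its percentiles were 16.8 in replicate 1, 42.0 in replicate 2 and 75.8 in replicate 3, a spread that covers most of the list. Replicate 2 also had a stronger candidate within 500 bp of the TSS, at percentile 88.6. It matched none of the pooled candidates of msl-3. The other 4 candidates had signals from 40.9 to 52.9.

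The sequences at these 3 starts are shown because they differ in the promoter words they hold. They are from the Release 6 (dm6) genome, 5′ to 3′ on the strand of the msl gene, within 100 bp of the summit and cut back where an untranslated region begins. Words searched on both strands are in capitals: GAGAGAG (GA repeat, bound by CLAMP and GAGA factor), TATCGATA (bound by Dref), CGATA (bound by BEAF, and part of TATCGATA), GGTCACAC (the core promoter word Motif 1), CAGGTAG (bound by Zelda) and TATAAA (bound by TBP). The printed msl-1 stretch held none of the 6, and that of msl-2 held Motif 1. The msl-3 stretch held Motif 1, TATCGATA and a separate CGATA although its peak was weak. The stretches differ in length because of the cut. Within the full 100 bp of its summit msl-3 also had TATAAA, in the part not printed. Over the same reach msl-1 and msl-2 had no further word. Between the starts of msl-2 and ND-PDSW lie 44 bp, printed in full.
msl-1, chr2L:18688822-18689022, minus strand: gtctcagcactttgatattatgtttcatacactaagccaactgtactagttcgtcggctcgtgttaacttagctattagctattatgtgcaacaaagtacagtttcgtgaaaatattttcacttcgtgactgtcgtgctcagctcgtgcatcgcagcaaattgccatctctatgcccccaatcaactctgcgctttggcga
msl-2, chr2L:3466113-3466156, minus strand: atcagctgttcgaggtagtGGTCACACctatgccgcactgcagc
msl-3, chr3L:7125534-7125645, minus strand: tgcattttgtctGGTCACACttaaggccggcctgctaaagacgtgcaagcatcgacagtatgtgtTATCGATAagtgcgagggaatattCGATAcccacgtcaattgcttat

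The genes for the acetyltransferase and the helicase, mof and mle, had no IDR peak at their own promoters. The mof gene, for the acetyltransferase (X 5873840 to 5876853, minus strand), had 5 candidates of signal 40.5 to 68.6. The strongest lay 364 bp downstream of the TSS, in coding sequence, at rank 8592. It was matched in replicate 1 at percentile 85.5 and in no other replicate. In replicates 2 and 3 the nearest summits matched a separate pooled candidate 165 bp downstream of the TSS, at percentiles 57.8 and 67.6, with a pooled signal of 62.4.

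The mle gene, for the helicase (2R 5974857 to 5980778, minus strand, 2 TSSs), had weak candidates at its starts. They lay 266 bp upstream and 78 bp downstream of the second TSS, had signals of 42.9 and 43.4, and were each matched in 1 replicate. Its IDR peak, with a signal of 168 and rank 1285, was 413 bp past the 3′ end of mle. That summit lay 59 bp upstream of the start of BubR1, a mitotic checkpoint kinase gene, at 2R 5974242 to 5974645. Its percentiles were 85.9, 97.0 and 96.4 in replicates 1, 2 and 3 (93.1 ± 6.28, SD, n = 3). It counts for mle only through the 2 kb window and lies at the promoter of the neighbour. At the other end, 1151 bp upstream of mle and 85 bp into the kinase gene Src42A, a candidate of signal 94.5 ranked 4344.

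**Figure D2:**
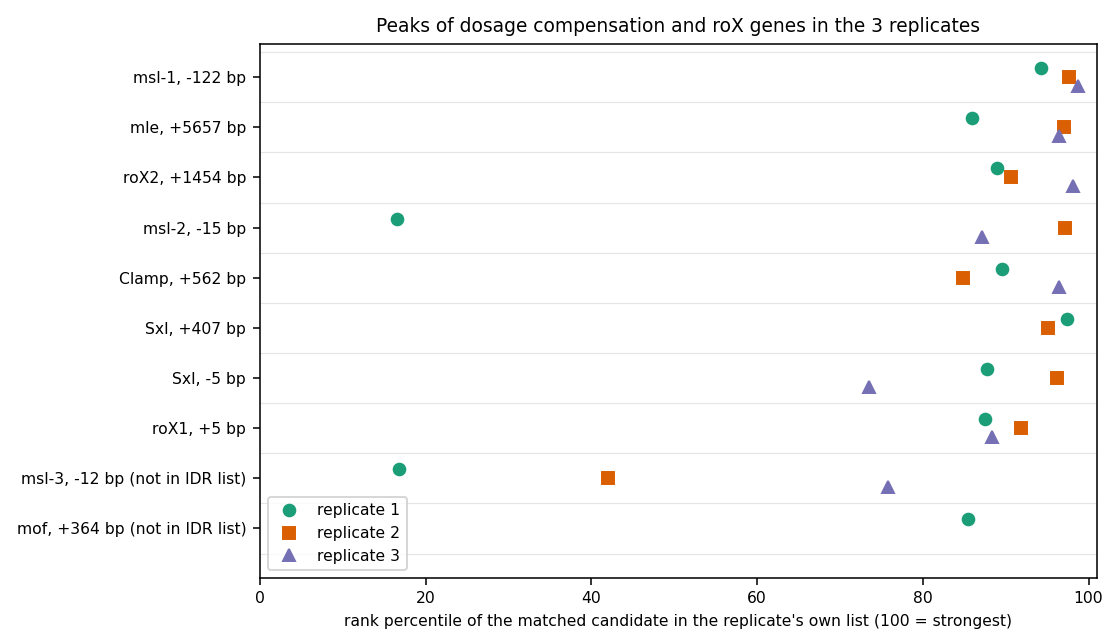
Rank percentile in each replicate's own list (x axis, 100 is the strongest candidate) of the 8 IDR peaks and of the strongest candidates of msl-3 and mof (y axis, named by gene and by bp from the nearest TSS of that gene). Points are single replicates. Those of msl-1 sit between 94.3 and 98.7, while those of msl-2 range from 16.6 to 97.2, and the candidate of mof has a point in replicate 1 alone.

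The roX genes encode the RNA subunits, each able to serve in place of the other. At lncRNA:roX1 (X 3857230 to 3862697, minus strand, 3 TSSs) the IDR summit lay 5 bp downstream of the first TSS, 267 bp upstream of the second and 631 bp upstream of the third, in a peak at X 3862490 to 3862893. The signal was 123, rank 2604, close to the end of the IDR list. Percentiles were 87.5, 91.8 and 88.4 in replicates 1, 2 and 3 (89.2 ± 2.22, SD, n = 3), so the replicates placed it alike and none near the top. A second candidate inside roX1, 1315 bp from the first TSS and 679 bp from the third, fell just under the limit with a signal of 110 and rank 3174, and percentiles of 81.3, 78.1 and 91.3 (83.6 ± 6.90, SD, n = 3).

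The second candidate is the one that coincides with a GA repeat. Within roX1 and 2 kb either side, GAGAGAG occurred at 1 place, 1358 bp from the first TSS in an exon, with its centre 43 bp from this summit. The roX box core GTTNTACG, the short element that both RNAs carry, occurred 3 times on the transcribed strand of roX1, from 3660 to 3778 bp. The nearest candidate to these 3, of signal 45.3, was at least 1656 bp away.

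At lncRNA:roX2 (X 11579065 to 11580432, plus strand) the start had a single weak candidate, 335 bp downstream of the TSS, with a signal of 37.9, rank 29007, and no match in any replicate. The nearest summit of replicate 2 was 202 bp further downstream, at percentile 81.2, and that of replicate 3 was 277 bp further downstream, at 15.2. Replicate 3 also had a summit 769 bp upstream of this candidate, within 500 bp of the TSS, at percentile 30.2. The IDR peak lay at the other end, 87 bp past the 3′ end of roX2 and 253 bp upstream of the kinesin gene nod, at X 11580317 to 11580720. Its signal was 166, rank 1332, with percentiles of 88.9, 90.7 and 98.1 (92.5 ± 4.91, SD, n = 3). A second candidate, 36 bp upstream of nod, had a signal of 92.0. In roX2, GAGAGAG occurred at 2 places in exons, 1152 bp from the TSS on the opposite strand and 1205 bp on the transcribed strand, with centres 302 and 249 bp from the IDR summit. The roX box core occurred at 1018 and 1083 bp, 436 and 371 bp from that summit.

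Sequences within 100 bp of both IDR summits and of the second roX1 candidate are printed on the strand of the roX gene. Neither IDR stretch holds any of the 6 words. The second roX1 candidate holds the GA repeat, read here as CTCTCTC, and CGATA in both places as TATCG. The other candidates in roX exons, of signal 45.3 in roX1 and 37.9 in roX2, held none of the words and are not printed. The words thus did not separate IDR peaks from weaker candidates here.
roX1, summit 5 bp from the first TSS (IDR), chrX:3862592-3862792, minus strand: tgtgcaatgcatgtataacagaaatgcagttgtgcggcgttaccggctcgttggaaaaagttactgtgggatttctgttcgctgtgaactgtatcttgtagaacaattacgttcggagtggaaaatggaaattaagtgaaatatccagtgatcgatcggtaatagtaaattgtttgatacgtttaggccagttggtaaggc
roX1, summit 679 bp from the third TSS (not IDR), chrX:3861282-3861482, minus strand: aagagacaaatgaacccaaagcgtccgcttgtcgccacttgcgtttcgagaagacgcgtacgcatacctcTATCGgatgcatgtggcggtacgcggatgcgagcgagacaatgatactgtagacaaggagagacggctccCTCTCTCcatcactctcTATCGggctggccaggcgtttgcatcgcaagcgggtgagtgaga
roX2, summit 87 bp past the 3′ end (IDR), chrX:11580419-11580619, plus strand: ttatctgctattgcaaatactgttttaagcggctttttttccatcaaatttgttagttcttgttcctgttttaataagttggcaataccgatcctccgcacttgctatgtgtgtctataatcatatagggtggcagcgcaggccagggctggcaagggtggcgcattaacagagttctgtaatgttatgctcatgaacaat

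The Clamp gene, for the zinc-finger protein that binds GA repeats (2L 22165720 to 22169143, minus strand), had 2 candidates, on either side of its TSS. The IDR peak, at 2L 22168379 to 22168782, had its summit 562 bp downstream of the TSS in 5′ untranslated sequence, with a signal of 140 and rank 1966. Percentiles were 89.6, 84.8 and 96.4 (90.3 ± 5.82, SD, n = 3). This summit lay just outside the promoter window of 500 bp. The upstream candidate, 127 bp before the TSS and 398 bp from lncRNA:CR44809, had a signal of 110 and rank 3170, next to the second roX1 candidate and just outside the IDR list. It stood at percentile 97.4 in replicate 1 and 19.4 in replicate 2. Replicate 3 had no match, its nearest summit being 672 bp downstream. For Clamp the replicates thus agreed on the site inside the gene and not on the one before it.

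Sxl (X 7074550 to 7098053, minus strand), the gene for the splicing and translation regulator, had 7 candidates and 4 annotated TSSs, of which the first 3 lie within 1 kb and the last farther downstream at X 7092883. It was the single gene of the 9 with more than 1 IDR peak. The peak at the first TSS, at X 7097856 to 7098259, had its summit 5 bp upstream, with a signal of 128 and rank 2401. Percentiles were 87.7, 96.2 and 73.5 in replicates 1, 2 and 3 (85.8 ± 11.5, SD, n = 3). The other, at X 7096457 to 7096860, had its summit in an intron, 1394 bp after the first and 407 bp after the third TSS, with a signal of 133 and rank 2197. It stood at 97.4 in replicate 1 and 95.1 in replicate 2. In replicate 3 it had no match, and the nearest summits lay 587 bp upstream and 837 bp downstream. The one upstream stood at percentile 93.3 and matched a pooled candidate 189 bp before the third TSS, with a signal of 56.0 (percentile 54.6 in replicate 2, no match in replicate 1). The annotation does not say which TSS belongs to the early and which to the maintenance promoter. The candidate of the last TSS was 38 bp upstream, with a signal of 47.7, rank 18858, and percentiles of 32.6, 3.03 and 52.8 (29.5 ± 25.0, SD, n = 3). The upstream starts carried both IDR peaks, and the downstream start a low-ranked candidate. Between them lay candidates of signal 93.6 and 86.1.

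The stretches at the first and last Sxl starts and at Clamp are given on the strand of the gene. Motif 1 lies before the first Sxl TSS as GTGTGACC. The Zelda word lies before the last as CTACCTG, and it was at no other of the 48 summits. Over all candidates not in the IDR list, the share with this word was 1.43%, so 1 of 48 does not set these genes apart. The Clamp stretch holds the words of TBP, BEAF and Motif 1.
Sxl, summit 5 bp before the first TSS (IDR), chrX:7098054-7098158, minus strand: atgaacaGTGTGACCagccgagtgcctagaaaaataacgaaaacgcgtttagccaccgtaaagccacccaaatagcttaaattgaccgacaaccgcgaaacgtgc
Sxl, summit 38 bp before the last TSS (not IDR), chrX:7092884-7093021, minus strand: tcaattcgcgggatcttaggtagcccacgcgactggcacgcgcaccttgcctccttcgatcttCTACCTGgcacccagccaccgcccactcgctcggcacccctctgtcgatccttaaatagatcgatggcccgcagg
Clamp, summit 127 bp before the TSS (not IDR), chr2L:22169170-22169370, minus strand: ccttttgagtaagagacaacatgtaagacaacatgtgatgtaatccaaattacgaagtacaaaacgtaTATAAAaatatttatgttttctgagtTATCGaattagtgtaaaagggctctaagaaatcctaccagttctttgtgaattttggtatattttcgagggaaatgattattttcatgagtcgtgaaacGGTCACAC

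Over the 8 IDR summits of the 9 genes, GAGAGAG was within 100 bp of 0 summits, against 235 of 2964 for the whole IDR list (7.93%). The 2 summits with it, the second roX1 candidate and the Sxl candidate 189 bp before the third TSS, were among the 40 candidates not in the list, where the share over all such candidates was 4.65%. Motif 1 was at 2 of 8 (msl-2 and the first Sxl TSS, against 7.15%), CGATA at 2 of 8 (the BubR1 side of mle and the intronic Sxl peak, against 39.0%), and TATCGATA at 1 of 8 (the BubR1 side of mle, against 8.16%). TATAAA was at 1 of 8 (Clamp, against 19.3%) and CAGGTAG at 0 of 8 (against 0.911%). With 8 summits these are descriptions, and a missing word says no more than that the letters are not in the window. GC content within 100 bp ran from 38.3% to 45.3% over the 8 summits, inside the quartiles of all IDR summits (37.3% to 47.3%, median 41.8%). Candidates not in the list had a median of 48.3%. The median percentile of the 8 peaks was 88.3 in replicate 1, 95.7 in replicate 2 and 96.4 over the 7 matched in replicate 3, beside 94.5, 94.9 and 94.7 for all IDR peaks matched.

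**Figure D3:**
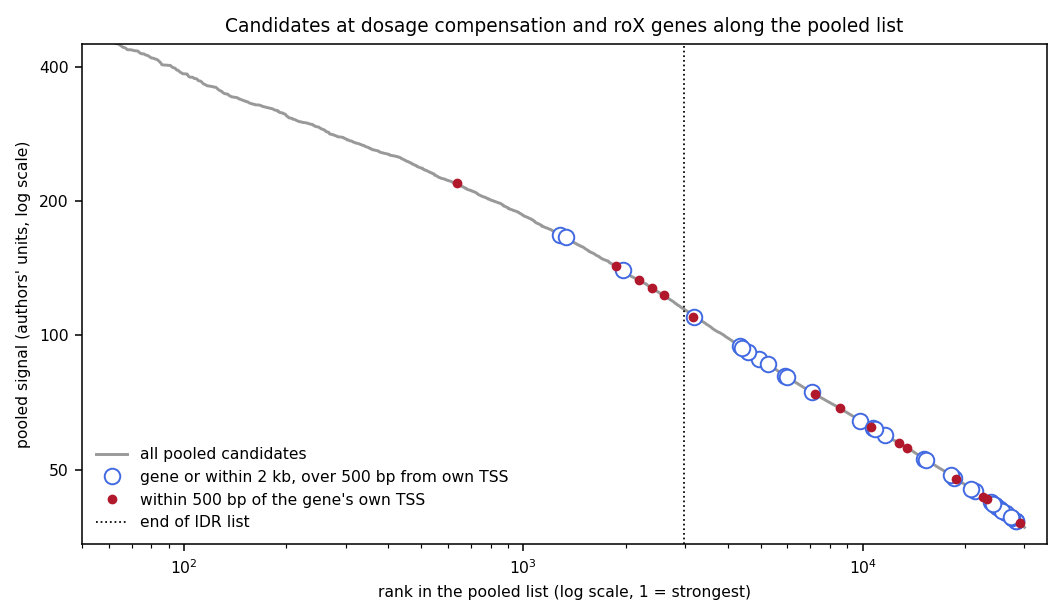
Pooled signal (y axis, log scale) against rank (x axis, log scale) for the pooled list (grey line), with the candidates of the 9 genes marked: filled red within 500 bp of the gene's own TSS, open blue elsewhere in the gene or within 2 kb. The dotted line is the end of the IDR list at rank 2964, and the strongest candidates of the list, none of them at these genes, lie beyond the axes. The marks run from rank 635 to rank 29007, with roX1 at 123 the last inside the line and Clamp and roX1 at 110 the first outside it.

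The genes of the 9 that lie on the X are those for the RNAs, mof and Sxl. Of these 4, 3 had an IDR peak in their window, against 26.9% of all X genes, and 2 had one within 500 bp of a TSS, against 14.9% of X genes. The corresponding shares of all genes were 27.4% and 15.5%. The peak counted for lncRNA:roX2 lay past the 3′ end of that gene, nearer to the start of nod than to the roX2 TSS. The 4 X-linked IDR peaks had signals of 123 to 166, and the 4 autosomal ones 140 to 219, so the ranges overlap.

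The msl-1 promoter peak, the strongest of the 9 genes, was compared with all promoter IDR peaks by the sum of absolute differences of the 3 replicates' percentiles. The nearest were those of ap, a homeobox gene (94.0, 97.5 and 98.9, sum 0.585), Adss, a purine synthesis gene (94.5, 97.1 and 98.5, sum 0.834), and ec (94.4, 96.9 and 98.8, sum 0.946). With 3 values per peak this likeness says little.

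Genes that act beside the 9 also had IDR peaks at many of their promoters. Of 7 genes linked to the MSL complex or to the RNAs and mRNA it depends on, 5 had a promoter IDR peak. The share was 15.5% of all genes and 18.7% of protein-coding genes. All 7 had an IDR peak within the 2 kb window, against 27.4% and 30.7%. Top2, for topoisomerase 2, had the strongest, 87 bp upstream of its TSS with a signal of 328 and percentiles of 99.0, 99.6 and 99.3. Trl, for GAGA factor, followed with 225 and Unr, for the protein that binds msl-2 mRNA with SXL, with 219. Set2 (191, with the start of CG1998 within 500 bp) and Rm62 (166) had lower ones. JIL-1, for the kinase enriched on the male X, and MRG15 had none within 500 bp.

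Of the 6 other genes of the NSL complex, which also holds MOF, 2 had a promoter IDR peak: nsl1 with a signal of 164 and dgt1 with 117, the latter unmatched in replicate 2. In the 2 kb window the count was 3 of 6, with wds added. Of 10 genes that count X chromosomes or control Sxl transcription, 3 had one. These were gro, for the Groucho corepressor (371; percentiles 99.6, 99.7 and 98.9), da, for the Daughterless partner of the X-encoded signals (163), and her (139, shared with Trpgamma). The X-linked signal genes sisA, sc, run and upd1 had no IDR peak in or within 2 kb, and neither had zld, the gene for Zelda, emc or dpn. Of 9 genes for Sxl splicing cofactors and targets, 4 had a promoter IDR peak, all with the start of a neighbour within 500 bp of the summit: snf (164, with Cdk7), fl(2)d (155, with CG13339), vir (137, with Ice1) and Ythdc1 (117, with CG12010). The sex-determination genes tra, tra2, dsx and fru had none at their promoters, though tra had 2 in its 2 kb window, which brought that count to 5 of 9. Counts at promoters stand beside 15.5% of all genes and 18.7% of protein-coding genes. Counts in the 2 kb window, which grows with gene length, stand beside 27.4% and 30.7%. Like those of the 9 genes, they carry no test.

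**Figure D4:**
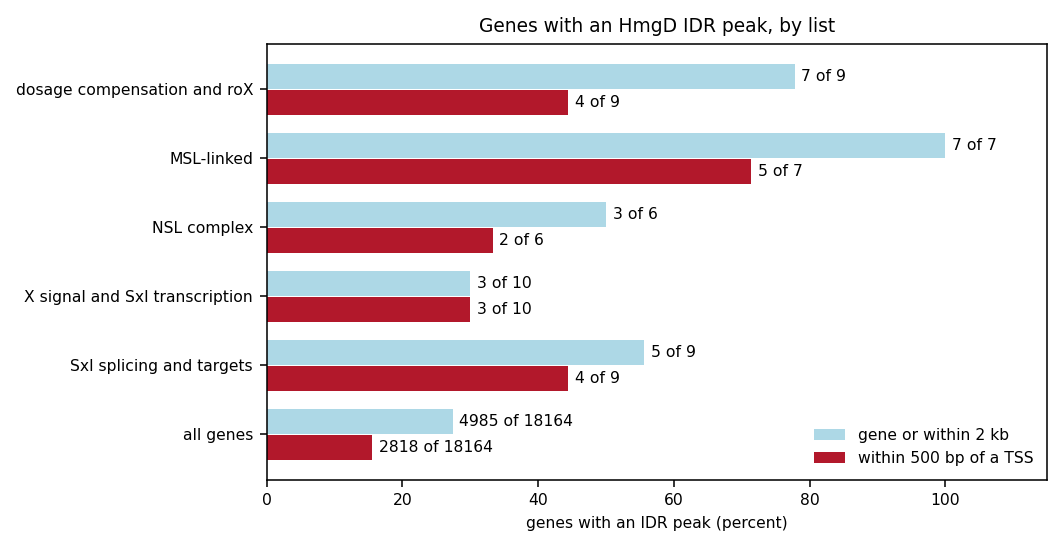
Percent of genes with an IDR peak (x axis) in the gene or within 2 kb (blue) and within 500 bp of a TSS (red), for the 9 dosage compensation and roX genes, 4 lists of genes that act beside them, and all genes on the arms. Labels give the counts, from 3 of 10 for X signal genes to 7 of 7 for MSL-linked genes in the wider window, beside 4985 of 18164 for all genes.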

How the data were processed

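Per the deposited description of the files, the authors called candidate peaks and background per replicate and on the pooled alignments, each against control data not used here, and thresholded them by IDR. Which aligner and peak caller were used, with which settings, and at which IDR value, is not given in the sources used here. Their deposited column 7 holds the authors' signal per peak, and column 9 holds −log10 q-values, read only and not used. The dm6 lists were used and the dm3 lists were not. The lists held 28193, 30000 and 30000 candidates for replicates 1, 2 and 3. Depth is unknown, so no interval for counting error can be given.

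Genes and TSSs came from the Ensembl release 115 annotation of the same assembly, and sequences from the NCBI RefSeq copy of Release 6. A summit was assigned to a gene within 2000 bp and to a promoter within 500 bp. Summits were matched between lists when each was the other's nearest within 200 bp. Words were searched within 100 bp of summits on both strands. Peaks at pathway promoters are represented by the strongest IDR peak within 500 bp, and likeness was taken for the strongest promoter IDR peak of the 9 genes. Assignment and matching were tested on simulated peaks. The 9 genes, the lists and the words were chosen with earlier results of these data known. Python 3.11.15, numpy 2.4.6, pandas 2.3.3 and scipy 1.17.1 were used, with matplotlib 3.10.9 for the plots. With 1 group there was no contrast between conditions. All 3 replicates are labelled biological, and counts over genes carry no p-value. Alternatives tried were other flanks, promoter windows, overlap rules, match distances, a higher signal limit and leaving out each replicate.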

Additional observations from a re-analysis of the deposited data

How the results depend on the processing

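The count of 7 genes with an IDR peak in their window was the same with flanks of 500 and 5000 bp and with any overlap in place of the summit. The count of 4 promoters was the same within 250 bp and became 5 within 1000 bp, where Clamp was added. The 48 pooled candidates became 34, 72 and 48 with flanks of 500 and 5000 bp and with overlap. With the 1482 IDR peaks of higher signal, 3 genes (msl-1, mle and roX2) kept a peak in their window, 1 (msl-1) kept a promoter peak, and 3 of 8 peaks remained, against 15.9% and 8.53% of all genes. With the 1259 candidates among the strongest of all 3 replicates these counts were 1, 1 and 1, each time msl-1, against 14.0% and 7.26% of all genes. With a replicate left out they ranged from 2 to 3, from 1 to 2 and from 2 to 3. All of these sets are smaller than the IDR list by construction. The peaks counted for mle and roX2 lie nearer to the starts of BubR1 and nod than to any TSS of mle or roX2. A shorter and a longer match distance left the mean percentile of the strongest candidate the same for all 9 genes. The mean percentile of the msl-2 peak, 67.0 over 3 replicates, was 92.2 without replicate 1, 51.9 without replicate 2 and 56.9 without replicate 3. That of the msl-3 candidate, 44.9, ranged from 29.4 to 58.9. No paired analysis was possible because the series holds 1 group. Reproducibility across 3 lists limits how far a single peak such as that of msl-2 can be read, and without read counts an absent candidate cannot be told from one too shallow to be listed.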

Other observations

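Several neighbours of the 9 genes had candidates at their starts that did not reach the IDR list. The start of CG10336, upstream of msl-1, had a candidate of signal 88.7 at percentiles 81.0, 83.5 and 67.0 in replicates 1, 2 and 3. The start of Src42A, upstream of mle, had one of 94.5 at 71.7, 89.8 and 92.8. The start of GAA1, downstream of mof, had one of 41.9. The Sxl window also held a candidate of 86.1 in lncRNA:CR46494, a noncoding gene that overlaps Sxl, at 86.7 and 83.2 in replicates 2 and 3 with no match in replicate 1.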
